A study of Mus musculus with 8 samples.

Results

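The unnamed autosomal models that overlap a named gene are rows of the deposited gene table that carry no gene symbol, lie on chromosomes 1 to 19, and share at least 1 bp of their mm10 interval with a row that has a symbol. A value of at least 10 normalised counts in at least 4 of the 8 libraries was also required. This gave 5205 models of 56324 in the table, and 5205 of 15852 (32.8%) unnamed autosomal models that overlap a named one. They overlapped 3437 named genes, 2594 of which held a single such model, and 13 genes held at least 10. The interval of 4258 models (81.8%) lay wholly inside the named interval, 885 overlapped it in part and 62 contained it. The models were selected on their measured level, so a model present in 1 cell type alone had to differ: 629 passed through the spermatocyte libraries alone, 508 through the spermatid libraries alone, and 2577 had at least 10 in all 8.

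All 8 libraries were labelled Sam68 -/- and C57BL/6, so both groups carried the same knockout: 4 libraries of spermatocytes and 4 of spermatids, each from 12-week-old males by gravity sedimentation (Sta-put). Sam68, encoded by Khdrbs1, is an RNA-binding protein of the STAR family, and the series title concerns its part in processing the 3' ends of germ cell transcripts. The libraries were made from 1 µg of RNA with a stranded mRNA kit. The labels do not say whether the 4 libraries of a cell type are separate animals or preparations of the same cells, so a p-value here reflects the spread between libraries, which can be technical. Other genotypes were not analysed here. Khdrbs1 itself had 3808, 3421, 4319 and 4985 normalised counts in the spermatocyte libraries and 651, 625, 854 and 1129 in the spermatid libraries, summed over its whole interval, which does not check the deleted part.

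The libraries held 49000266 to 93975960 reads. All 8 spermatid markers were higher in spermatids, while 2 of 8 spermatocyte markers were lower and none higher. All 12 Sertoli cell markers and all 6 matched Leydig cell markers were lower in spermatids, and the summed Sertoli level was 30119, 51252, 150888 and 72738 normalised counts in the 4 spermatocyte libraries and 2005 to 5894 in the spermatid libraries. The 4 peritubular markers, and 7 of 10 macrophage and blood markers, were higher in spermatids. In bulk libraries fewer cells of a type and less RNA per cell cannot be told apart.

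Spermatocytes are germ cells in meiosis, and spermatids are the haploid cells that follow and remodel into sperm. Both are known for pervasive transcription, in which introns, antisense strands, divergent promoters and intergenic regions give long RNAs, and for shortened 3' ends of many mRNAs. Spermatocytes also make PIWI-interacting RNAs, short RNAs that are cut from long precursor transcripts of defined clusters and mostly begin with U. A gene table counts a read wherever it falls, so an unnamed model inside a named gene can hold reads of an antisense RNA, of an unspliced intron, of an unlisted exon or of a small RNA precursor. The deposited table gives its models no class and no strand.

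Of the models, 741 were 20 to 200 bp long. Sequences could be read for those that lie in a single-strand exon of a GENCODE M21 transcript (GRCm38, the build of mm10). The class of 26 to 33 bp is shown because most of its ends share a base that the choice of members did not use. For this class 55 of 282 could be read, and 51 of these 55 (92.7%) began with T or ended with A, which is a T at the start of the other strand. At the next base inward the same count was 15 (27.3%). The neighbouring classes had the same end base, in 43 of 56 (76.8%, next base 32.1%) at 20 to 25 bp and in 22 of 28 (78.6%, next base 25%) at 34 to 60 bp. The lines below give 9 of these 55, from a pseudogene listed as Gm18009 inside Gm10069, from a transcript listed as Gm44168 inside Gm5577, and from M5C1000I18Rik, each 5′ to 3′ on the strand of the GENCODE transcript (plus for Gm44168, minus for the others), with a first T or a last A in capitals.
Gm10069 chr6:128447198-128447223: TcaaggaaacaaagccatctaaaccA
Gm10069 chr6:128447783-128447812: aacagaaacagttctatgcctttgaggagA
Gm10069 chr6:128448145-128448173: TcaaaagtagccgtcgctcccaacagtcA
Gm10069 chr6:128448191-128448219: gcaagtacgtcaagcccttcatgagccaA
Gm5577 chr6:87988286-87988315: aatccgaaaggtcttgaatagtggggctcA
Gm5577 chr6:87987400-87987425: gcccacttagacccatggcactctcA
Gm5577 chr6:87988544-87988571: gggcacttggaagtctattagctaaggA
M5C1000I18Rik chr9:67758935-67758963: TtgaaaacgcattagtccgcctacgtttA
M5C1000I18Rik chr9:67758996-67759026: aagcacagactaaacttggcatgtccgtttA
All 6 readable models of 26 to 33 bp in Gm18009, all 8 in Gm44168 and all 3 in M5C1000I18Rik ended with A, while 6 of 7 in Cbl began with T. All 9 printed models were lower in spermatids, as were 29.8% of all tested models. The Gm5577 model at chr6:87988286-87988315 had 11.2 normalised counts in the second spermatid library. The others passed the level filter through spermatocytes alone and so had to fall. The 29 bp model at chr6:128448191-128448219 had 61.3, 55.0, 51.4 and 84.5 normalised counts in the spermatocyte libraries and 3.58, 1.87, 0 and 1.09 in the spermatid libraries.

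Models of 61 to 200 bp had other ends. Of the 88 with a readable sequence, 69 (78.4%) began with CG, 54 (61.4%) ended with CG and 51 had CG at both ends, whereas CG made up 2.03% of the dinucleotides between the end pairs. In the 26 to 33 bp class 1 of 55 began with CG and none ended with it. An example in a GENCODE transcript with no listed UTR or coding sequence, with the end CG pairs in capitals, lies in Trappc9, a subunit gene of a vesicle tethering complex, within the imprinted noncoding RNA gene Peg13 on the minus strand.
Trappc9 chr15:72808206-72808370: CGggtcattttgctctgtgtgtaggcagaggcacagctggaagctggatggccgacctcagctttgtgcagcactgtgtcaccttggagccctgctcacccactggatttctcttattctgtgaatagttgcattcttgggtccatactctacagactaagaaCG
Of the 51 models with CG at both ends, 17 were lower in spermatids, 8 were higher and 26 were not called. They were spread over 50 genes. These end counts were made after sequences of the models had been seen, so they carry no test, and the models' own strand is not given.

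Another group of sequences is shown for models whose interval is identical to a GENCODE gene, 362 of the 5205 (7.0%). In 145 of these 362 (40.1%) a GENCODE transcript carried AATAAA or ATTAAA, the usual poly(A) signals, on its own strand within its last 50 bases, any position counted. For the type that GENCODE calls TEC (transcripts that await experimental evidence) the share was 35.9% of 251 models, against 29.0% of all 3219 such GENCODE genes, and for antisense genes 57.6% of 59, against 48.6% of 2959. For sense intronic genes the share was 23.8% of 21, against 29.4% of 327, and for long intergenic RNA genes 50% of 20, against 44.4% of 5854. The last 60 bases of 3 of the 6 most abundant ones with a signal in a last exon clear of UTR and coding sequence follow, with the signal in capitals, chosen because their ratio to the gene was called. All 3 lie on the plus strand, against the strand of the gene they overlap.
4930517J16Rik chr4:44670838-44670897: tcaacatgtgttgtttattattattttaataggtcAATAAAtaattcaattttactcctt
Gm49442 chr15:98895116-98895175: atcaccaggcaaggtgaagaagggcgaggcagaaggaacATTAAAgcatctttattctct
1700016K05Rik chr17:66720426-66720485: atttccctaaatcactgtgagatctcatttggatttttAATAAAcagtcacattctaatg
The signal ended 19, 15 and 16 bases before the listed transcript end. A match is a description of these letters and not a measured 3' end.

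The 4930517J16Rik model in an intron of Pax5, a transcription factor gene of B cells, had 14154, 13432, 10171 and 13649 normalised counts in spermatocytes and 3499, 4341, 3962 and 3223 in spermatids. It fell (log2 fold change -1.77 ± 0.17 SE, adjusted p = 1.75e-06), whereas Pax5 was higher in spermatids by 4.35. The Gm49442 model in Dhh, which encodes the Sertoli cell ligand desert hedgehog, had 1613, 1495, 741 and 1805 in spermatocytes and 1651, 2451, 1971 and 1675 in spermatids. These groups overlapped, and the log2 fold change of 0.51 was not called, while Dhh, itself a member of the Sertoli marker list, stood at -1.38. The 1700016K05Rik model in Ptprm, a receptor phosphatase gene, had 1739, 1704, 1472 and 1596 in spermatocytes and 1131, 1376, 1519 and 1386 in spermatids, a log2 fold change of -0.27 against -3.03 for Ptprm. The ratio of the model to the gene rose for these 2 (Dhh 1.89 ± 0.46 SE, adjusted p = 0.00498; Ptprm 2.76 ± 0.27 SE, adjusted p = 7.60e-06). The other 3 of the 6 had ratio changes of 0.03 for Gm43579 in Ddx54, 0.04 for Gm10550 in Thap4 and -0.34 for 1700051K13Rik in Etv6, none of them called.

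Between the cell types, 1496 of the 5205 models (28.7%) were higher in spermatids and 1795 (34.5%) were lower. A call in limma took an adjusted p under 0.05 together with a log2 change of 1 or more in either direction, and all 28735 tested models of the table entered the fit, on the scale log2(normalised count + 1). Over all tested models 32.5% were called higher, 29.8% lower and 62.3% either way. The median log2 fold change of the members was -0.28, and that of all tested models -0.01. The groups did not overlap for 3238 members (62.2%), against 66.4% of all tested models. These shares are near the background, and length split them. The cut at 200 bp was set with the data known, so the split is described and not tested.

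Short models were mostly lower in spermatids, but 475 of the 741 had passed the level filter through spermatocytes alone and so had to fall. Of the 741 up to 200 bp, 579 (78.1%) were lower and 36 higher, with a median log2 fold change of -3.52. Of the 4464 longer ones, 1460 (32.7%) were higher and 1216 (27.2%) lower, with a median of 0.04. Of these 4464, 492 had passed the filter through spermatids alone and so had to rise, and 154 through spermatocytes alone. With at least 10 required in all 8 libraries, 528 longer ones were higher and 711 lower. Their order of higher and lower calls thus depended on the filter. It also depended on the scaling, with 1253 higher and 1557 lower at equal library totals and 1357 higher and 1462 lower after quantile normalisation. Within the short set, 26 of 78 of 20 to 25 bp, 243 of 282 of 26 to 33 bp, 147 of 160 of 34 to 60 bp and 163 of 221 of 61 to 200 bp were lower. In genes with at least 5 short models 480 of 506 were lower, and in genes with fewer than 5, 99 of 235 were lower and 34 higher. The level filter fixed many of these falls, since 135 of 142 short models in Kcnma1 and all 93 in Cyp19a1 passed through spermatocytes alone. In Gm2762 7 of 22 did, and in Cbl 0 of 15. The 506 and the 235 were not split this way, so their contrast is not read as a result. The median level of the short models was low, from 17.4 to 30.4 normalised counts over the 4 length classes, near the minimum of 10 that chose them.

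**Figure D1:**
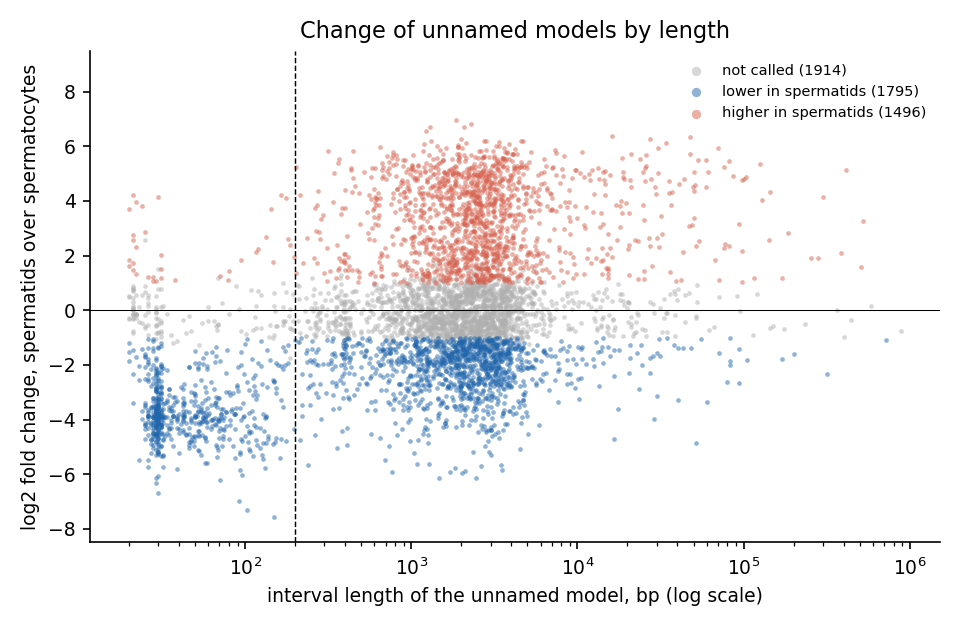
Log2 fold change, spermatids over spermatocytes (vertical axis), against the interval length in bp on a log scale (horizontal axis) for the 5205 unnamed models, one point each, coloured by call; the dashed line marks 200 bp. Left of the line 579 of 741 points are blue, called lower, and right of it 1460 of 4464 are red, called higher.

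The densest gene was Kcnma1, which encodes the large-conductance calcium-activated potassium channel. It held 145 models, 142 of them up to 200 bp, and 144 were lower in spermatids. Of the 145, 135 passed the filter through spermatocytes alone. The 144 lie between chr14:24044343 and 24120513, inside the deposited Kcnma1 interval (chr14:23298694-24127601) but past the GENCODE gene, which begins on the minus strand at 24014491. Their summed short-model level was 5236, 5880.3, 6565 and 4785 normalised counts in the spermatocyte libraries and 287, 402, 299 and 336 in the spermatid libraries. Kcnma1 had 181, 183, 187 and 163 in spermatocytes and 235, 293, 243 and 305 in spermatids. The level filter fixed the fall of the 135 models, so the order of the sums is not set against the gene. Kcnma1 itself had a log2 fold change of 0.58, not called. The ratio to the gene was called lower for the same number of models, 144, a count that the filter bears on as well. The 145th, an 847 bp model in an intron, was higher in spermatids at 1.81.

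Cyp19a1, the aromatase that turns androgens into oestrogens, held 94 models, all lower in spermatids. Unlike Kcnma1, the gene itself fell as well. Its values were 502, 548, 666 and 602 in spermatocytes and 7.16, 11.2, 16.5 and 16.3 in spermatids (log2 fold change -5.45 ± 0.31 SE, adjusted p = 1.83e-08). The 4 spermatocyte values had the same order by library as the Sertoli marker sums, which ran from 30119 to 150888, and the part of Sertoli cells in the fall of Cyp19a1 was not tested. The short models summed to 3275, 3687, 4200.0 and 3149 in spermatocytes and 64.5, 93.5, 73.6 and 69.7 in spermatids. Of the 94 models 93 had at least 10 in all spermatocyte libraries and less than 10 in all spermatid libraries, so the level filter fixed their fall and its size is not set against that of the gene. A 150 bp intronic model (chr9:54237895-54238044) had 185, 199, 224 and 147 in spermatocytes and 0 in every spermatid library, at least 57.0-fold lower against a floor of 3 reads per library. A 92 bp one (chr9:54237722-54237813) had 179.7, 214, 180.0 and 268 in spermatocytes and 0.896, 0, 3.002 and 0 in spermatids, 216-fold lower with a counting interval of 73.9 to 1047. For 51 of the 94 the fitted ratio to Cyp19a1 was called higher, but the added count of 1 bounds the fall of models near 0, and the sign of the ratio of both models just described depends on that constant.

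The same pattern of falling short models recurred with and without a fall of the gene. In Gm10619, Gm5577, Gm10069 and Stox1 (the last encodes a winged helix protein) 134 of 138 models and the genes were lower. The log2 fold change of the gene was -3.86, -1.24, -1.71 and -4.41 in that order. Of these 138 models, 41 in Gm10619, 28 in Gm5577, 27 in Gm10069 and all 29 in Stox1 passed the filter through spermatocytes alone. In Kcnk10 (a two-pore potassium channel), Prkca (protein kinase C alpha), Cbl (an E3 ubiquitin ligase), Gm2762 and Gm14152 the gene was not called, while 22 of 23, 17 of 20, 15 of 16, 23 of 24 and 14 of 14 models were lower. Their ratio to the gene was called lower for 22, 16, 15, 20 and 14 models. Spermatocytes alone carried 21 of the Kcnk10 and 15 of the Prkca models past the filter, but 7 of 24 in Gm2762, 2 of 14 in Gm14152 and none in Cbl.

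In Kcnk10 a 30 bp intronic model (chr12:98449800-98449829) had 190.2, 203, 264 and 86.8 in spermatocytes and 1.79, 1.87, 0 and 0 in spermatids. Kcnk10 had 113, 123, 114 and 114 in spermatocytes and 134, 212, 144 and 107 in spermatids. The model passed the filter through spermatocytes alone and so had to fall, and the gene groups overlapped. The ratio fell by 7.01 on the log2 scale (± 0.49 SE), and over the settings run its change ranged from -7.64 to -4.66. The filter bears on this ratio as well, so it is not read as a test. The Cbl models differ from the others in place, since all 16 lie wholly in exons of Cbl. The most abundant, 59 bp at chr9:44145158-44145216, had 717, 628, 706 and 232 in spermatocytes and 113, 126, 99.1 and 127 in spermatids. Cbl as a whole had 9283, 10127, 7180.1 and 11814 in spermatocytes and 8828, 13339, 12159.9 and 12021 in spermatids, and its groups overlapped. Pik3r2, a regulatory subunit gene of phosphoinositide 3-kinase, had no such set: of its 13 models 5 were higher and 2 lower, and 11 lie outside the GENCODE gene in the deposited interval (chr8:70064803-70776712). The 13th gene with at least 10 models is the protocadherin alpha cluster on chromosome 18, with 10 models, 4 higher and none lower.

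**Figure D2:**
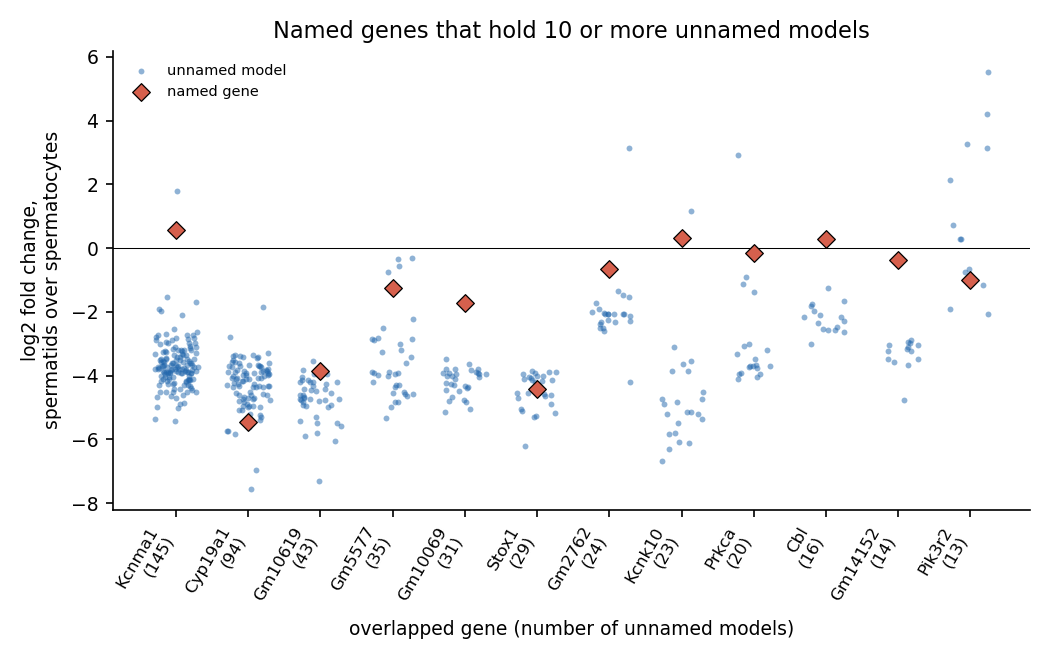
Log2 fold change, spermatids over spermatocytes (vertical axis), of every unnamed model (blue points) and of the named gene (red diamond) for the 12 genes with 10 or more unnamed models outside chromosome 18, with the number of models in brackets. The models of Kcnma1, Kcnk10 and Cbl sit mostly below -1 with the diamond above 0, while those of Cyp19a1, Gm10619 and Stox1 surround the diamond. Most of the Kcnma1, Kcnk10, Cyp19a1, Gm10619 and Stox1 models passed the level filter through spermatocytes alone.

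Among models over 200 bp, the shares of higher and lower calls differed by place against the GENCODE gene. For comparison, 32.5% of all tested models were called higher and 29.8% lower. Of 2212 intronic models 808 (36.5%) were higher and 608 (27.5%) lower. Of 359 that lie wholly in exons 67 (18.7%) were higher and 125 (34.8%) lower, the largest excess of lower calls among the 8 places. Models past the 5' end numbered 506 with 152 higher and 114 lower, and models past the 3' end 280 with 74 higher and 77 lower. Along the gene, the intronic models of over 200 bp were higher in 39.9% from 0 to 20% of the way from the 5' end and in 43.0% from 20 to 40%, and in 30.8% from 60 to 80% and 33.3% from 80 to 100%. These classes were not tested against each other. They also differed in level, with a median of 36.6 normalised counts for intronic and 83.5 for wholly exonic models. The 492 longer models that passed the filter through spermatids alone, and the 154 through spermatocytes alone, were not split by place. The part of the filter in these shares was thus not tested. The excess of lower calls in wholly exonic models held under the 3 other scalings, with 48 higher and 165 lower at equal library totals, whereas intronic models then had 720 higher and 752 lower, and models past the 5' end 124 higher and 164 lower.

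**Figure D3:**
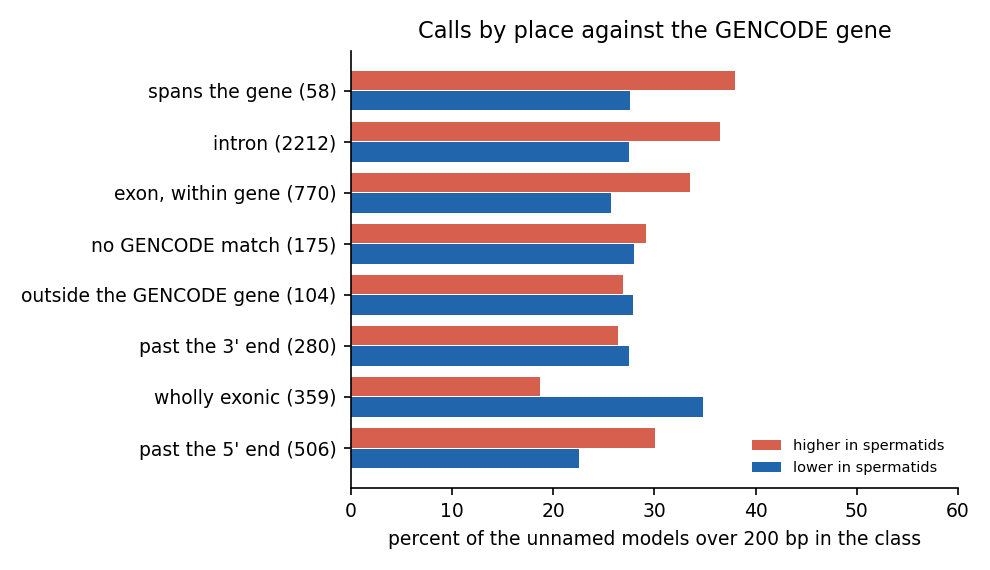
Percent of unnamed models over 200 bp called higher (red) or lower (blue) in spermatids, by place against the GENCODE gene, with the number of models in brackets. Lower calls outnumber higher ones most in the class that lies wholly in exons, at 34.8% against 18.7%.

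Each model was then set beside the gene it overlaps, with the longest overlap deciding where there were several. The gene was tested too for 5145 models. Across these pairs the log2 fold changes of model and gene had a Pearson correlation of 0.62 and a Spearman correlation of 0.58, over pairs that share libraries and in part reads and genes, as a description. Both were lower in 796 pairs, both higher in 940, and they went opposite ways in 203. In 869 pairs the model was lower and the gene not called, and in 442 the model was higher and the gene not called. The ratio of model to gene, tested in limma over all 8465 overlapping pairs of the table, rose in spermatids for 956 pairs and fell for 1442, together 46.6%. Over all overlapping pairs 21.0% rose, 28.7% fell and 49.7% did either, and among pairs of 2 named models 55.2% of 2829 were called. The share for the unnamed models is thus near the background of overlapping pairs.

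**Figure D4:**
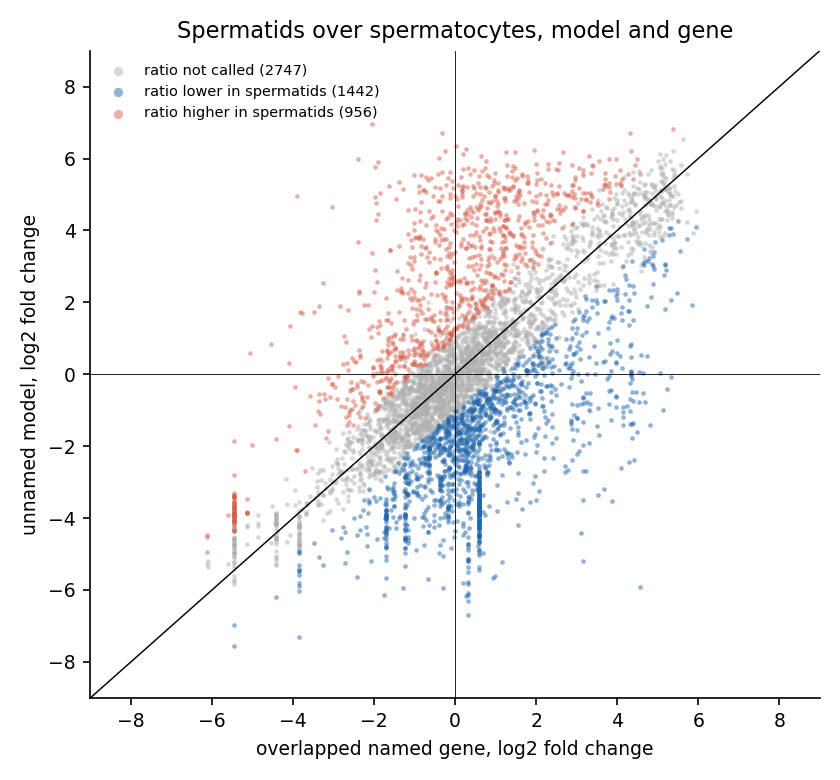
Log2 fold change of the unnamed model (vertical axis) against that of the overlapped named gene (horizontal axis), spermatids over spermatocytes, for 5145 pairs, one point each; the line marks equal change. Grey points are the 2747 pairs whose ratio was not called, blue the 1442 with a lower and red the 956 with a higher ratio in spermatids; vertical streaks are models that share a gene, such as Kcnma1 at 0.58.

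Among models over 200 bp, ratios were called for 28.4% of those wholly in exons and for 50.3% of intronic ones. Of the 203 pairs with opposite calls 97 had an intronic model, and in 120 the model was lower and the gene higher. Both model and gene reached a mean of 100 in their higher group in 105 of the 203.

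The largest rises of the ratio were 4 intronic models that appeared in spermatids inside genes that fell. The model in Etl4 (chr2:20214319-20216185), a gene of intervertebral disc development, had 0, 3.93, 2.24 and 0 normalised counts in spermatocytes and 227, 228, 311 and 244 in spermatids. Etl4 itself had 186, 360.2, 1117 and 513 in spermatocytes and 74.3, 102, 119 and 137 in spermatids. The model passed the filter through spermatids alone, so the separation of its groups was fixed by the selection. The gene's groups were separated in the opposite order, and the log2 ratio rose by 9.04 (± 0.57 SE). The selection bears on this ratio as well, so it is not read as a test. Pde4d encodes a phosphodiesterase that breaks down cAMP. Its model (chr13:109884220-109884870) had 9.67, 28.5, 29.1 and 0 in spermatocytes and 402, 609, 863 and 724 in spermatids, and its groups did not overlap. Pde4d itself had 131, 221, 350.0 and 295 in spermatocytes and 51.9, 28.0, 48.0 and 52.2 in spermatids, again in the opposite order.

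Kif6 encodes a kinesin motor. Its model (chr17:49817624-49821827), at the place of the antisense gene Gm16555, had 35.5, 26.5, 33.5 and 4.57 in spermatocytes and 1020.1, 1162, 1534 and 1382 in spermatids, while Kif6 fell from 1310.4, 1661, 1672 and 1982 to 318, 543, 473 and 459. Neither the model's groups nor the gene's overlapped (ratio 7.80 ± 0.60 SE, adjusted p = 1.52e-06). In Hpse2, a heparanase-like protein gene, the model (chr19:43266935-43277654) also lies at an antisense gene of GENCODE. It rose by 5.78 where Hpse2 fell by 1.97 on the log2 scale, with 3.22, 6.87, 12.3 and 0 in spermatocytes and 147, 273, 335 and 293 in spermatids. Hpse2 itself had 172, 172, 469 and 293 in spermatocytes and 89.6, 44.9, 54.0 and 76.2 in spermatids. Etl4, Pde4d and Hpse2 had their highest value in the third spermatocyte library, where the Sertoli marker sum was highest too, at 150888, and the part of that in the fall of these genes was not tested. Their models were at or below 29.1 in that library.

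The largest falls of the ratio, apart from the Kcnk10 model, were models that fell where the gene they overlap rose. The model at Hist3h2a and Trim17 (chr11:58954523-58955289), a histone H2A gene and a RING ubiquitin ligase gene that share 1 row, had 962, 1233, 1086 and 1497 in spermatocytes and 14.3, 20.6, 22.5 and 17.4 in spermatids. The named row had 778, 669, 795 and 785 in spermatocytes and 13204, 15859, 22565 and 21259.7 in spermatids. Neither set overlapped, and the ratio fell by 10.48 (± 0.26 SE, adjusted p = 2.64e-09). This was the largest change outside chromosome 18 among pairs with a mean of at least 100 for both in their higher group. Tulp2, a tubby-like gene expressed in testis, rose from 8596, 8858, 9193 and 10726 to 91158, 116237, 145599 and 132300.0, while the model in its intron (chr7:45508406-45511178) had 187, 255, 315 and 284 in spermatocytes and 30.4, 18.7, 27.0 and 33.7 in spermatids.

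Speer3, of a spermatogenesis-associated glutamate-rich family, lies inside a 60233 bp unnamed model (chr5:13748112-13808344) at the long noncoding gene 4930568A13Rik of the other strand. The model had 256, 232, 202 and 185 in spermatocytes and 19.7, 37.4, 21.0 and 10.9 in spermatids, and the gene had 153, 189, 163 and 210.1 in spermatocytes and 1601, 2669.9, 2076 and 2044 in spermatids. The immunoglobulin heavy chain row spans a long interval, and a model within it (chr12:112955548-112958398) had 6322, 5415, 6722 and 7392 in spermatocytes and 622, 633, 521 and 506 in spermatids. The heavy chain row itself was at 30.6, 72.6, 25.7 and 34.3 in spermatocytes and 344, 461, 474 and 184 in spermatids so that the model fell and the named row rose. The plot of single-library values below sets 6 pairs side by side.

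**Figure D5:**
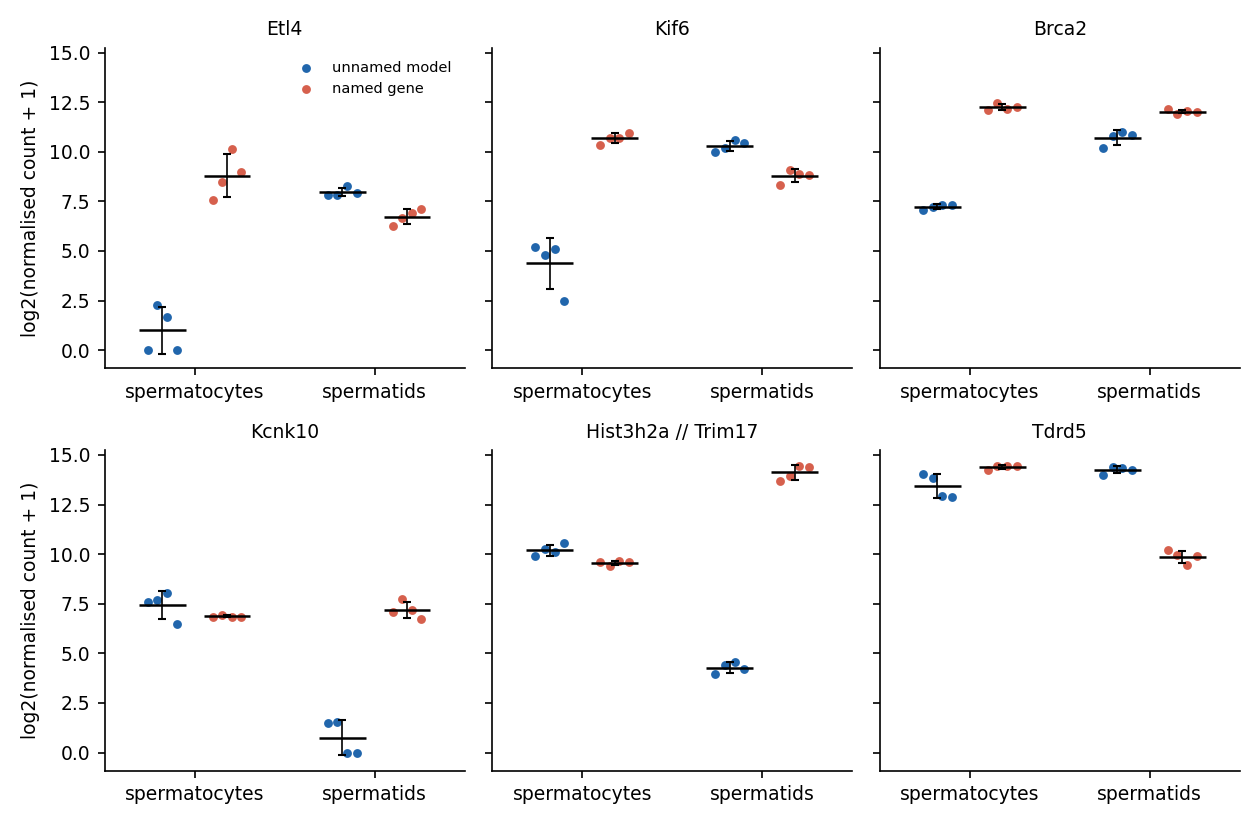
Log2(normalised count + 1) in each library (points; bar and whiskers, mean ± SD of 4) for the unnamed model (blue) and the named gene it overlaps (red) in 6 pairs, spermatocytes left and spermatids right. In Etl4, Kif6 and Brca2 the model rises while the gene falls or is not called, in Kcnk10 and at Hist3h2a // Trim17 the model falls, and at Tdrd5 the gene falls by 4.53 and the model past its 5' end is not called.

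Called models outside chromosome 18 with a mean of at least 100 in their higher group and no overlap were ranked by change. The largest rises in spermatids were in Etl4, Gm10471, Xpo7, Gm5796 and 4930467E23Rik. The Xpo7 model (chr14:70659383-70660673) lies wholly in annotated UTR of Xpo7, which encodes the nuclear transport receptor exportin-7, near the 3' end of the gene. It had 1.61, 2.94, 5.59 and 2.28 in spermatocytes and 234, 354, 683 and 485 in spermatids (log2 fold change 6.72 ± 0.42 SE). This model passed the filter through spermatids alone and so had to rise. Xpo7 as a whole had 1392, 2058, 3252 and 2157 in spermatocytes and 2503, 1276, 1504 and 1655 in spermatids, with overlapping groups and a log2 fold change of -0.33 that was not called. Its highest value was again in the third spermatocyte library. The ratio rose by 7.06, a change that the filter bears on as well.

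In the other 3 the predicted gene rose with its model. The Gm10471 model had 4.03, 10.8, 1.12 and 0 in spermatocytes and 287, 562, 387 and 325 in spermatids and rose by 6.82, with the gene at 5.37. The Gm5796 model rose by 6.71 and its gene by 4.32. This model and the 4930467E23Rik model passed the filter through spermatids alone and so had to rise. The 4930467E23Rik model had 2 reads in all spermatocyte libraries together and 73.4, 103, 131 and 198 normalised counts in spermatids, 313-fold higher with a counting interval of 86.7 to 2587, and its gene rose by 5.63. Such predicted genes have near-identical copies, so that reads may be split between copies. The 5 largest falls were the 2 Cyp19a1 models, the Kcnk10 model and short intronic models of Gm10619 and Stox1. All 5 passed the filter through spermatocytes alone and so had to fall. The Gm10619 one (103 bp, chr7:73799441-73799543) had 244, 224, 247 and 258 in spermatocytes and 0, 4.67, 0 and 0 in spermatids, and the Stox1 one (71 bp, chr10:62663590-62663660) had 72.5, 119.7, 133 and 221 in spermatocytes and 0, 1.87, 0 and 2.18 in spermatids.

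The 3 most abundant models lie in the deposited Lmbrd1 interval on chromosome 1, outside the GENCODE gene, which encodes a lysosomal cobalamin transporter. GENCODE lists pseudogenes of mitochondrial genes there (Gm28437, Gm10925 and Gm28661), and all of their 31-base words occur in transcripts of the mitochondrial genome. The model at chr1:24613188-24614814 had 338656, 644063, 740692 and 98054 normalised counts in spermatocytes and 234914, 151041, 199385 and 173882 in spermatids. Its groups overlapped, and the log2 fold change was -0.92 ± 0.50 SE, adjusted p = 0.119. Without the fourth spermatocyte library it was -1.54 and called lower. The 3 models took 0.25% to 2.31% of a library's normalised counts where models on chromosome M took 0.71% to 5.82%, and the third spermatocyte library was the highest and library 4 the lowest for these 3, at 2.31% and 0.25%. Reads of mitochondrial transcripts and of these copies cannot be told apart. Lmbrd1 had 648, 781, 763 and 468 in spermatocytes and 8126, 10474, 11501 and 10984 in spermatids.

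The next most abundant included pairs that moved together and pairs that did not. The 7002 bp model that contains Prm2 (chr16:10791059-10798060), the gene of protamine 2 that packs sperm DNA, had 1968, 1157, 2053 and 3127 in spermatocytes and 33252, 31349, 35990.3 and 34694 in spermatids. It rose by 4.11 and Prm2 by 4.06, and the ratio did not change beyond its spread (0.05 ± 0.15 SE, adjusted p = 0.789). The model in 1700003E16Rik rose by 1.15 and its gene by 1.18. Tmem242 encodes an assembly factor of mitochondrial complexes. Its model (chr17:5404121-5419652), past the 3' end and inside the antisense gene Gm29050, had 39643, 39405, 25109.6 and 37652 in spermatocytes and 22969.9, 36160.2, 33152 and 31560.3 in spermatids, while Tmem242 fell from 5560.5 ± 1168 to 2323 ± 541 (SD, n = 4 each).

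The Btbd9 model (chr17:30576299-30577429), past the 5' end of a BTB domain gene, had 27766, 27826, 14930.5 and 24867 in spermatocytes and 5904, 13430.0, 9644 and 8762 in spermatids. GENCODE lists 2 genes there, a processed transcript on the strand of Btbd9 that covers all 1131 bp and an antisense gene that covers 1130 of them. Btbd9 had 495, 527, 683 and 703 in spermatocytes and 2527, 2505, 3207 and 3091 in spermatids, so the model fell by 1.35 and the gene rose by 2.24 on the log2 scale (ratio -3.60 ± 0.34 SE, adjusted p = 6.0e-06). The 9030025P20Rik and Gm3435 model was at 13702 ± 6022 in spermatocytes and 20408 ± 5704 in spermatids (mean ± SD, n = 4), and neither it nor its row was called.

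Of 40 spermiogenesis genes, 29 rose and 4 fell, and the 12 unnamed models in 10 of them had 9 higher and 1 lower, with 1 ratio called in each direction. Over all tested models 32.5% were called higher, and 4 of the 12 passed the filter through spermatids alone and so had to rise. In Catsper3, a subunit gene of the sperm calcium channel, the intronic model (chr13:55790656-55794211) had 17.7, 33.4, 35.8 and 4.57 in spermatocytes and 546, 1043, 1016 and 1154 in spermatids, and rose by 5.57 where the gene rose by 5.40. In Catsper2, of the same channel, a 219 bp intronic model instead fell by 3.46 on the log2 scale, with the gene at 0.39 and not called. The Odf2 models, in a gene of the outer dense fibres of the sperm tail, rose by 1.29 and 1.60, and one more, outside the GENCODE gene, was at -0.18. In Dnah8, an axonemal dynein gene that fell by 1.59, the model was at 0.24 and its ratio rose.

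Of 37 tested meiosis genes 13 rose and 7 fell, and of the 13 models in 11 of them 7 were higher and none lower. The shares over all tested models were 32.5% higher and 29.8% lower. Brca2, which loads the recombinase on broken DNA, held 2 models that rose while the gene was not called. The intronic model (chr5:150562311-150566359), at the listed genes Gm42531 on the strand of Brca2 and Gm42529 on the other, had 131, 149, 161 and 156 in spermatocytes and 1174, 1792, 2054 and 1862 in spermatids. Brca2 had 4475, 5652, 4529 and 4910.3 in spermatocytes and 4485, 3884, 4284 and 4062 in spermatids, so the model's groups were far apart and the gene's overlapped (ratio 3.71 ± 0.24 SE, adjusted p = 4.26e-07). A 1742 bp model wholly in exons of Brca2 rose as well, by 1.75 (± 0.29 SE, adjusted p = 1.41e-04). The model past the 5' end of Sycp2, a synaptonemal complex gene, rose by 1.51 where the gene fell by 1.26. The Brca1 model had 11.6, 28.0, 34.5 and 35.9 in spermatids and 0 in 3 of 4 spermatocyte libraries, and rose by 3.995, with the gene at 2.86. It was the 1 of the 13 that passed the filter through spermatids alone and so had to rise.

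In genes of the piRNA pathway 2 of 20 rose and 10 fell, and of 5 models in 4 of them 2 were lower and none higher. For comparison, 32.5% of all tested models were called higher and 29.8% lower. Tdrd5 encodes a tudor domain protein needed for piRNA production. The model past its 5' end (chr1:156303486-156304959), at the antisense gene 4930518J20Rik, had 16581, 14747, 7755 and 7650.3 in spermatocytes and 16456, 21495, 21112 and 19487 in spermatids. Tdrd5 had 19487, 22392, 22604 and 22497 in spermatocytes and 1164, 985, 701 and 957 in spermatids, so that the gene fell while the model's groups overlapped and its log2 fold change of 0.83 was not called (ratio 5.36 ± 0.32 SE, adjusted p = 3.0e-07). Without the first spermatocyte library the model was called higher, at 1.03. The intronic Tdrd5 model, identical to A430050A11Rik, fell with the gene, with log2 fold changes of -4.69 and -4.53. It passed the filter through spermatocytes alone and so had to fall. In Piwil1, a PIWI protein gene, the intronic model fell by 1.97 and the gene by 5.02.

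For the machinery of 3' end processing, the subject of the series title, 10 of 29 genes rose and 6 fell, and of 13 models in 9 of them 3 were higher, 4 lower and 6 not called. No ratio rose and 3 fell. Among all tested models 32.5% were called higher and 29.8% lower, and the ratio of 21.0% of all overlapping pairs rose and of 28.7% fell. The higher and lower calls of these 13 models are near the shares for all models and are not read as a result. The Cstf3 model (chr2:104658584-104664741), in a gene of the cleavage stimulation factor, had 475, 489, 556 and 355 in spermatocytes and 244, 249, 233 and 291 in spermatids. Its log2 fold change of -0.87 did not pass the size threshold, and Cstf3 itself was called lower at -1.005. In Pabpc1, the cytoplasmic poly(A)-binding protein gene, a 349 bp intronic model had 46.7, 102, 49.2 and 24.0 in spermatocytes and 17.9, 16.8, 7.51 and 6.53 in spermatids, whereas the gene stood at 245210.0 ± 25749 in spermatocytes and 302486 ± 64059.7 in spermatids (mean ± SD, n = 4). Models in Papola, a poly(A) polymerase gene, and Pcf11, of cleavage factor II, rose by 1.73 and 1.23 with ratio changes of 0.24 and 0.25 that were not called.

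Splicing genes mostly fell, 22 of 39 against 3 that rose, and of 23 models in 13 of them 12 were lower and 4 higher. Only 4 of the 23 ratios were called, against 49.7% of all overlapping pairs. Calls over all tested models were 32.5% higher and 29.8% lower. Of the 23 models, 3 passed the filter through spermatocytes alone and 2 through spermatids alone. The Srsf4 model identical to A930004J17Rik, in an SR protein gene, had 1189.5, 1614, 1208 and 919 in spermatocytes and 387, 607, 386 and 518 in spermatids. Both Ptbp2 models, in a polypyrimidine tract-binding protein gene, fell, with log2 fold changes of -2.34 and -2.46, beside a gene that fell by 2.16. Rbfox2, a regulator of exon choice, went the other way: its model (chr15:77084397-77096314), at the antisense gene 1700109K24Rik, had 20.1, 26.5, 14.5 and 16.0 in spermatocytes and 472, 521, 599 and 558 in spermatids. It rose by 4.76, against 1.06 for Rbfox2.

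Of the 5 STAR family genes, 3 fell and none rose, where 29.8% of all tested models fell and 32.5% rose. Only Khdrbs1 held an unnamed model. It lies in an intron at chr4:129705166-129707201 and had 6.45, 4.91, 0 and 4.57 normalised counts in spermatocytes and 14.3, 13.1, 34.5 and 18.5 in spermatids. The model passed the filter through spermatids alone and so had to rise. It rose by 2.31 where Khdrbs1 fell by 2.37 (ratio 4.68 ± 0.66 SE), on 17 reads in spermatocytes and 70 in spermatids. The filter bears on this ratio as well, so it is not read as a test.

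Strand could be given for models identical to a GENCODE gene. Of 209 on the strand of the overlapped gene 81 (38.8%) were higher and 48 (23.0%) lower. Of 142 on the opposite strand 51 (35.9%) were higher and 26 (18.3%) lower. The shares over all tested models were 32.5% higher and 29.8% lower. Models that passed the level filter through 1 cell type alone were not split by strand. Per kb of exon, the 141 opposite-strand models with a tested gene had a median level of 26.5 normalised counts in spermatocytes, where their genes had 119, and 56.1 in spermatids, where their genes had 117. The 206 same-strand ones had 13.1 beside 184 in spermatocytes and 17.9 beside 210 in spermatids. Models stood above their gene per kb in 40 of 141 opposite-strand and 19 of 206 same-strand pairs in spermatocytes. The counting tool's strand setting is not given, so reads of both strands may be mixed.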

How the data were processed

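RNA-seq libraries of spermatocytes and spermatids, 4 each, were used. The authors deposited a table of normalised counts, a signal per gene model with mm10 coordinates, per the file headers. The values are whole multiples of 1 step per library, as read counts divided by a size factor give. The submitters' processing notes name STAR 2.4.0, SAMtools, Picard, FastQC and DESeq. Which tool counted reads, and with which strand setting and filters, is not given in the sources used here, so overlapping, antisense and near-identical genes may share reads. The 8 further value columns of the table were not used. Read totals recovered from the smallest step of the values, with 100% whole within 10% of a step, ran from 49000266 to 93975960 per library, and a floor of 3 reads was 2.42 to 4.50 normalised counts.

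Values were tested as log2(normalised count + 1) in limma 3.58.1 (R 4.3.3; trend, robust, Benjamini-Hochberg adjustment), over every model with at least 10 in at least 4 libraries. The ratio of a model to its gene was tested over every overlapping pair of the table. Calls needed an adjusted p under 0.05 and a log2 change of at least 1. The steps were tested on simulated counts. edgeR 4.0.16 on the recovered reads was an alternative, as were other filters, scalings, added counts, overlap rules and left-out libraries.

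Place, strand and sequence come from GENCODE M21 (GRCm38). Members and gene lists were chosen with earlier results of these data known. Members were named as the 8 most abundant, the 5 largest rises and falls, the 4 largest ratio changes each way, the 4 strongest opposite pairs, and, for each gene list, the most abundant and the most changed. Models on chromosome 18, 154 in all, were left out of these rankings and of the printed sequences. The genes shown with sequences, the genes with at least 10 members, and other list members were picked after their values were seen. Library intervals and floors cover counting error only.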

Additional observations from a re-analysis of the deposited data

Results flagged for a closer look

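Of 76 groups of 4 libraries checked among the named models, 5 held a value whose gap to its nearest neighbour was a large share of the group's range, and chance alone flags about 1 group in 20. In spermatocytes, the Tmem242 model had its lowest value in the third library, at 25109.6 normalised counts, with the others from 37652 to 39643. The highest spermatocyte value was 4.84 for the Gm5796 model, 1.61 for the 4930467E23Rik model and 6.45 for the Brca1 model, each far from the rest of its group and resting on a few reads. In spermatids, the Gm10619 model had 4.67 in the second library and 0 in the other 3.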

How the results depend on the processing

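No called model changed direction under any setting run. Stricter level filters lowered the counts, with fewer models tested, and also changed the order of higher and lower calls. At 50 or more, higher calls outnumbered lower ones among all members, unlike in the main fit. At 10 or more in all 8 libraries, lower calls outnumbered higher ones among the longer models, again unlike in the main fit. With at least 50 in 4 or more libraries 2687 models remained, with 1714 called (879 higher, 835 lower), 110 short ones lower, 865 longer ones higher and 725 lower, and 1250 ratios called (557 higher, 693 lower) with 121 opposite pairs. With at least 10 in all 8 libraries 2577 remained, with 1305 called (541 higher, 764 lower), 53 short ones lower, 528 longer ones higher and 711 lower, and 1055 ratios called (386 higher, 669 lower) with 113 opposite pairs. Leaving out 1 library gave 3173 to 3358 called models, 1436 to 1534 higher, 1721 to 1898 lower, 576 to 584 short ones lower, 1401 to 1498 longer ones higher, 1144 to 1314 longer ones lower, 2211 to 2512 called ratios (850 to 959 higher, 1319 to 1579 lower) and 172 to 208 opposite pairs. Equal library totals moved the median of all tested models to -0.44 and quantile normalisation to -0.37, and the higher share of member calls from 45.5% to 37.2% and 40.4%. With 8 added in place of 1, the ratio change turned sign to -0.13 for Gm10471, -1.68 for 4930467E23Rik, 0.23 and 0.24 for the Cyp19a1 models, 0.26 for Stox1 and 1.33 for the intronic Tdrd5 model, all with few reads in 1 group; the cause was not tested. The 1700003E16Rik model lost its call under equal totals (0.71) and quantile normalisation (0.58), and Cstf3 gained one (-1.30 and -1.23). Chosen after seeing the data, edgeR called 3313 members (1476 higher, 1837 lower) and leaving out spermatocyte libraries 3 and 4 gave 3341. No paired analysis was possible because the labels give the groups no shared replicate numbers. Models near the minimum of 10 rest on few reads, and their folds depend on the added count.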

Other observations

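Of the 5205 unnamed models, 83 (1.59%) lay at least 50% within a GENCODE pseudogene, and 16 of these were higher in spermatids and 22 lower. They had a median level of 148 normalised counts, against 50.1 for all 5205, and they made up 8 of the 100 most abundant models. Reads of such copies and of their parent genes cannot be told apart in this table.

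A mature miRNA entry of RefSeq was overlapped by 23 of the models, 1 of them up to 200 bp long. Short unnamed models were also common outside named genes, where 2173 of 2385 (91.1%) were lower in spermatids, against 29.8% of all tested models. The same level filter chose them. How many passed it through spermatocytes alone, and so had to fall, was not counted. Without the 3 mitochondrial copies in Lmbrd1, the unnamed models took 2.07% to 2.29% of the normalised counts in the spermatocyte libraries and 1.92% to 1.98% in the spermatid libraries.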
